A study of Xenopus laevis with 12 samples.

Results

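The comparison described here set 3 samples of Xenopus laevis embryos that received a morpholino against the microRNA miR-196a beside 3 samples that received a mismatch morpholino, all at Nieuwkoop and Faber stage 14, when the neural plate is open. All 6 came from wild-type embryos of this frog. Each embryo was injected into the right dorsal blastomere when it had 4 cells, and the dose of either oligonucleotide was 60 ng. The tissue is labelled neural crest, the batch label repeats the stage, and the labels do not say whether samples came from separate clutches, so the errors measure only the spread between these samples. Stage 14 makes up 6 of the 12 samples of the study, and the other 6 are the same arms at stage 17. The genes described are the 15698 of 18206 rows of the stage 14 table whose mean normalised count was 10 or more, which carry 10841 gene symbols. They were sorted into 70 families by symbol, which took in 3163 rows. Of these families, 12 were added after values were seen.

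A morpholino is a stable antisense oligonucleotide analogue that blocks the RNA it pairs with, and a mismatch morpholino carries altered bases as a control for the injection. MicroRNAs guide Argonaute proteins to messenger RNAs, whose level or translation then drops, and miR-196a is encoded within the Hox clusters. At the neural plate stage the ectoderm divides into neural plate, neural crest, placodes and epidermis. The epidermis of the frog embryo is itself a mucociliary sheet of goblet cells, multiciliated cells and ionocytes. The title of the series speaks of neural crest patterning and of immature neural ectoderm programmes held down by miR-196a, and the comparison asks which transcripts differ when the microRNA is blocked.

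The values rest on the authors' deposited table, which gives each gene a mean normalised count over the 6 libraries, a log2 fold change, its standard error (SE) and a p-value with its adjusted value. No value per sample entered the analysis. Which arm is the numerator is not given in the sources used here, so signs are kept as deposited, and positive genes are those higher in the numerator arm. The mean level of each arm was computed from the mean count and the fold change. An arm at or under 3 normalised counts counts as at the floor, and a fold against it is a lower bound that uses 3. Depth per library is unknown, and the mean normalised counts summed to 1.67e+07. The median SE in the authors' deposited table fell from 1.50 among genes with means of 10 to 30 to 0.27 among those of 3000 or more, so small changes of low genes were not detectable.

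Markers of several tissues were present in these libraries. The 12 copies of 6 neural crest markers summed to 3135 normalised counts in the numerator arm and 30116 in the denominator arm, and 11 of the 12 were past the threshold with a negative sign in the authors' deposited table. The 13 copies of 7 epidermal markers, which include the secreted lectin itln1 and keratins, summed to 52176 and 173891 in those arms. Of these 13 copies, 7 were past the threshold with a negative sign and 0 with a positive sign. The keratin copy krt70.S alone held 16922 and 80690 of these sums. Both copies of the marker epcam had a positive sign, with log2 fold changes of 0.18 and 0.64, and did not pass. Only 4 of 10 markers of mesoderm, muscle and blood had rows, with mean levels from 4.09 to 59.1 and 0 of 5 copies past the threshold. For bulk samples like these, fewer cells of a type and less RNA per cell cannot be told apart.

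Of the 15639 genes with a p-value, 520 (3.33%) were positive and 950 (6.07%) negative at adjusted p-values below 0.05 in the authors' deposited table, together 9.40%. Over the whole table, without the minimum, the shares were 3.06% and 5.62%, together 8.68%. The remaining 59 rows had no p-value there. The median log2 fold change in the authors' deposited table was 0.02 over all tested genes, 1.65 over the positive genes past the threshold and -2.14 over the negative ones. In 29 positive and 122 negative genes the lower arm was at or under the floor. Families held 489 of the 1470 genes past the threshold, and 981 belonged to none of them. Both directions were thus seen in the same libraries, and the families differed in which direction their members took. Family counts below stand beside 3.33% positive and 6.07% negative of all genes.

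**Figure D1:**
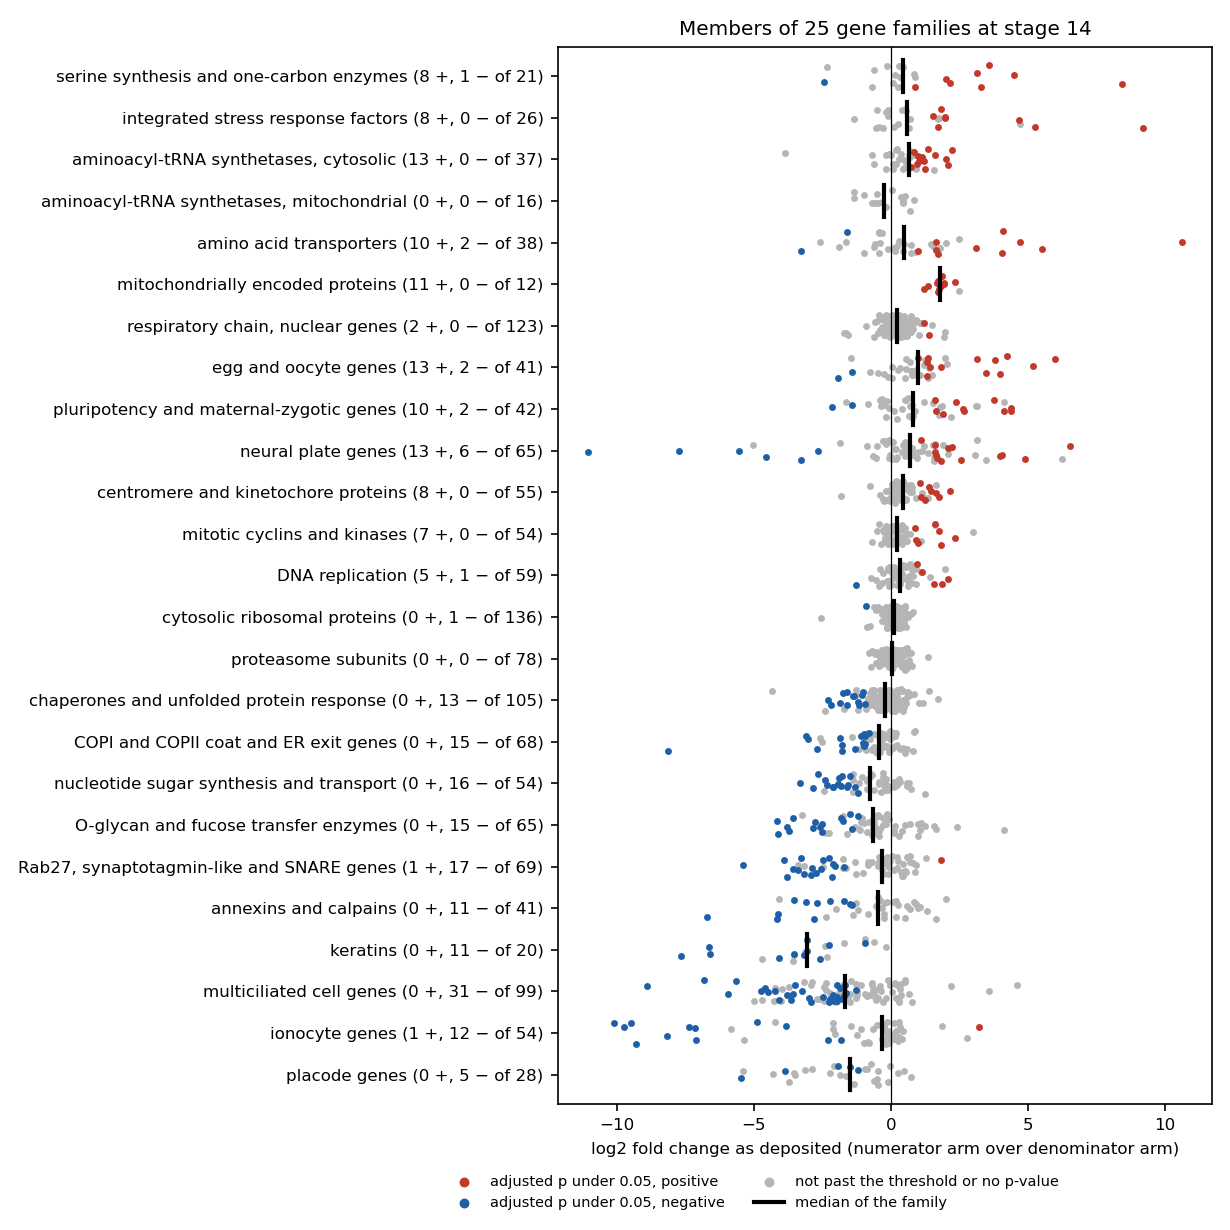
Log2 fold changes of the members of 25 gene families at stage 14 (horizontal axis, numerator over denominator arm, as deposited), with 1 point per gene copy. Red and blue points had an adjusted p-value under 0.05 with a positive or a negative sign, grey points did not or had no p-value, and black bars are family medians. The medians of serine, stress response, cytosolic tRNA synthetase and mitochondrially encoded genes lie to the right of 0, and those of keratin, multiciliated, secretory and glycan genes to the left.

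Low p-values were spread over these families. Positive genes outside any family included tdgf1.3.L, an EGF-CFC protein that serves as a Nodal co-receptor, which stood at 2890.4 normalised counts in the numerator and 174 in the denominator arm and had a log2 fold change of 4.05, with an SE of 0.41 (adjusted p = 1.15e-19) in the authors' deposited table. The rest of the 12 positive genes of lowest p-value were mostly serine, amino acid transport, oocyte and neural ectoderm genes described below, and phldb3.S, at 725 and 50.5 normalised counts. Of the 12 negative genes, MGC147226.S (38.4 and 1515 normalised counts) and ttc39a.L (5.72 and 339) were in no family. The other 10 encode a lectin, a keratin, a calcium pump, a calpain, an annexin, a subunit of an amino acid carrier and genes of glycan or glycolipid synthesis.

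All 6 gene copies of the serine synthesis pathway were higher in the numerator arm, and 5 of the 6 passed the threshold. This pathway turns a glycolytic intermediate into serine through phgdh, psat1 and psph, and serine then feeds the one-carbon units that folate enzymes carry. phgdh.L, the dehydrogenase of the first step, was at 217 against 22 normalised counts, a difference of 9.86-fold. psat1.S, the aminotransferase, was at 1425 against 4.05, and its copy psat1.L at 2757 against 122, with an SE of 1.11 in the authors' deposited table. The phosphatase copies psph.L and psph.S were 8.89-fold and 4.00-fold higher. The copy that did not pass was phgdh.S, with a log2 fold change of 0.84, an SE of 0.39 (adjusted p = 0.193) in the authors' deposited table.

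Enzymes that oxidise folate-bound one-carbon units were divided. mthfd2l.S and mthfd2.L, both mitochondrial methylenetetrahydrofolate dehydrogenases, were at 6139.9 against 1372 and 7089.8 against 3829.9 normalised counts, and the authors' deposited table gave adjusted p-values of 1.64e-14 and 0.0238. aldh1l2.S, the mitochondrial formyltetrahydrofolate dehydrogenase, was 11.9-fold higher in the numerator arm. The homeolog aldh1l2.L, at -0.69 in the authors' deposited table, had the other sign and did not pass the threshold. The cytosolic relative aldh1l1.L was lower, going from 2555 in the denominator to 475 in the numerator arm. It had a log2 fold change of -2.43, an SE of 0.28 (adjusted p = 7.53e-16) in the authors' deposited table. The family as a whole had 8 positive and 1 negative of 21 copies past the threshold and a median log2 fold change of 0.45.

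Factors of the integrated stress response that passed the threshold were also higher in the numerator arm. This response lowers general translation and raises the translation of atf4, a transcription factor whose known targets in mammals include serine, transport and tRNA synthetase genes. Of 26 copies, 8 were positive (30.8%) and 0 negative past the threshold of the authors' deposited table, with a median of 0.61. ddit3.L, which encodes the factor CHOP, was at 800.4 against 21 normalised counts. The glutathione-degrading enzyme gene chac1.L was at 1337 in the numerator arm and under the floor in the other, at least 446-fold higher. nupr1.L, a stress-induced nuclear protein, was 25.9-fold higher, and both copies of the leucine sensor sesn2 were 2.89-fold and 3.34-fold higher.

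The transcript of atf4 itself did not pass the threshold. atf4.L was at 3404 against 3872 normalised counts and atf4.S at 2331 against 2813, with log2 fold changes of -0.19 (SE 0.23) and -0.27 (SE 0.29) in the authors' deposited table. Among other basic leucine zipper factors, atf5.2.S was 3.59-fold higher, and cebpg.L and cebpg.S were 3.91-fold and 3.9-fold higher. The asparagine synthetase gene asns.L was low, at 49.9 against 14.6 normalised counts, and its SE of 1.54 in the authors' deposited table left no detectable difference. Its other copy and both copies of trib3 were not analysed here.

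Cytosolic aminoacyl-tRNA synthetases attach amino acids to tRNAs. They had 13 positive (35.1%) and 0 negative of 37 copies past the threshold, and a median of 0.67 in the authors' deposited table. The methionine enzyme mars1.S was at 1191 against 251 normalised counts, the asparagine enzyme nars1.L at 1103 against 273, the isoleucine enzyme iars1.L at 568 against 134 and the tryptophan enzyme wars1.S at 1189 against 388. Their folds lay between 3.06 and 4.74. The homeologs of these 4 were at most 2.98-fold apart between arms, and of them only iars1.S passed the threshold. Synthetases of the mitochondrion are separate genes for most amino acids, and 0 of their 16 copies passed the threshold, with 0 at an unadjusted p-value under 0.05 and a median of -0.26 in the authors' deposited table. The copy with the lowest p-value among them, hars2.L, had -0.58 (SE 0.34) in the authors' deposited table. The median SE there was 0.59 for the mitochondrial synthetases and 0.32 for the cytosolic ones, with median mean counts of 110 and 926. Changes of the size of the cytosolic median were therefore harder to detect in the mitochondrial set.

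Amino acid transporters had 10 positive (26.3%) and 2 negative (5.26%) of 38 copies past the threshold, with a median of 0.47 in the authors' deposited table. The negative share was near the 6.07% of all genes. slc7a5.L, the light chain of the large neutral amino acid exchanger, was at 730.2 against 27.9 normalised counts. slc1a4.L, which carries alanine and serine, was at 534 and under the floor, at least 178-fold higher, and the glutamine carrier gene slc38a5.S at 779.8 against 46.1. The arginine and lysine carriers slc7a3.L and slc7a1.L were 3.14-fold and 8.7-fold higher, and the glycine carrier slc6a9.S 16.5-fold. The clearest negative member was slc3a2.S, the heavy chain that brings slc7a5 to the membrane, at 132 in the numerator and 1279 in the denominator arm, with a log2 fold change of -3.28, an SE of 0.35 (adjusted p = 1.35e-17) in the authors' deposited table. Heavy and light chain thus moved in opposite directions, while its homeolog slc3a2.L was at 46.0 against 61.4 and did not pass the threshold.

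Enzymes of amino acid and methionine metabolism had 4 positive (13.3%) and 2 negative (6.67%) of 30 copies past the threshold. The shares of all genes were 3.33% and 6.07%, so the negative share was near that of all genes. The proline enzymes pycr1.L and aldh18a1.L were 3.3-fold and 2.93-fold higher, and oat.S, which links ornithine to proline, 5.07-fold. The adenosylhomocysteinase gene ahcy.L was 3.12-fold higher. The branched-chain aminotransferase bcat1.L and the glutaminase gls2.L were 2.68-fold and 6.25-fold lower in the numerator arm.

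**Figure D2:**
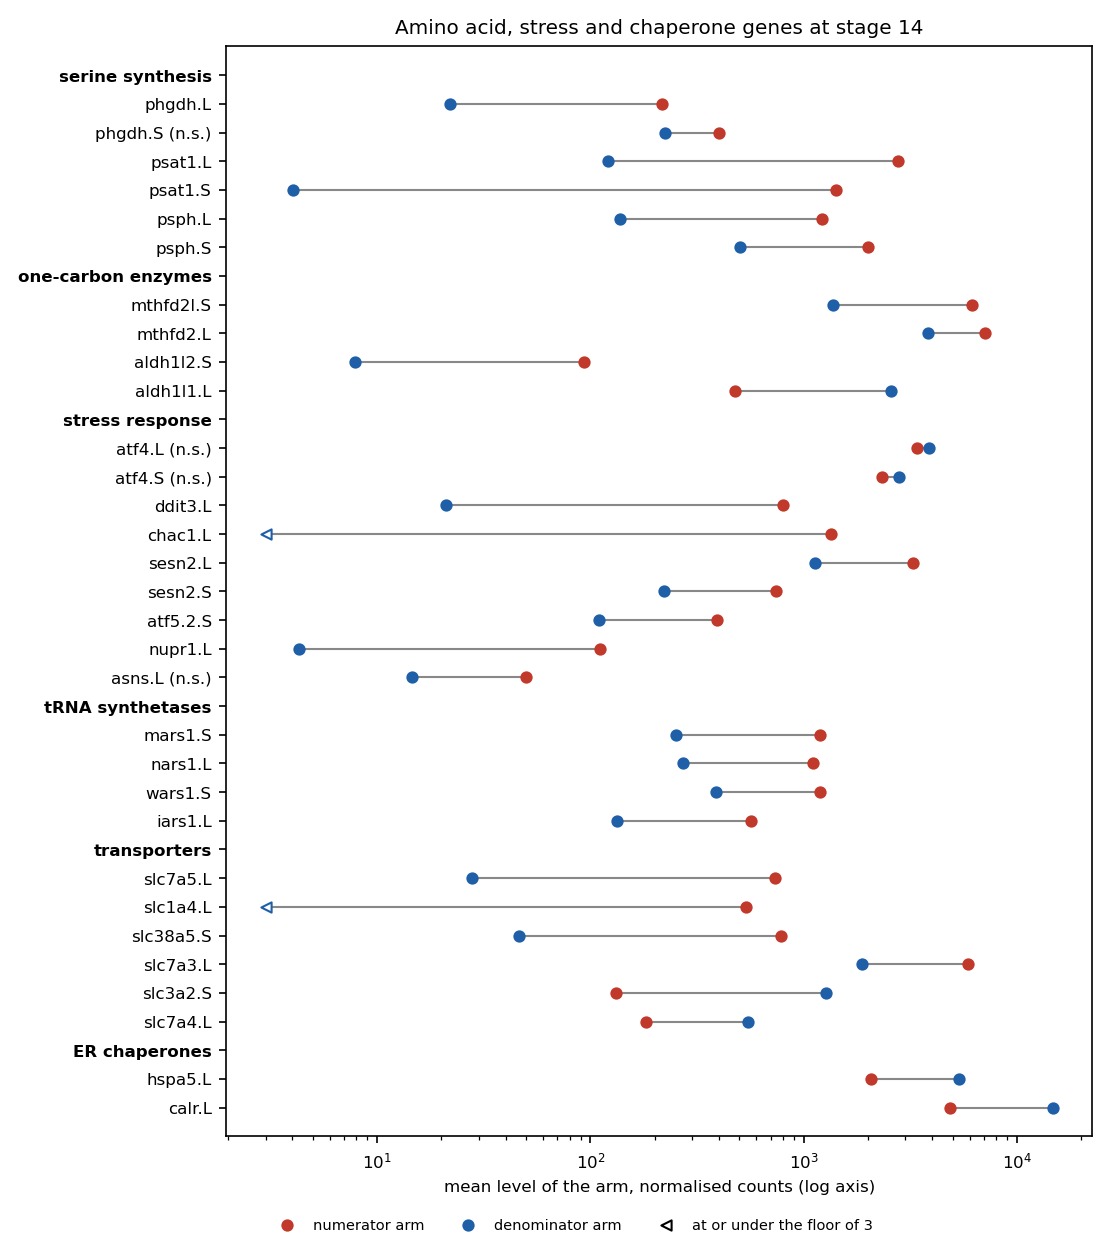
Mean level of the numerator arm (red) and of the denominator arm (blue) in normalised counts on a log axis, computed from the deposited mean and fold change, for amino acid, stress and chaperone genes at stage 14. Open triangles mark arms at or under 3, n.s. marks genes that did not pass the threshold, and no error bars are drawn because the SE belongs to the fold change. psat1.S spans from 4.05 to 1425, atf4 copies nearly coincide, and slc3a2.S, aldh1l1.L, hspa5.L and calr.L are lower in the numerator arm.

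The chaperones that passed the threshold had the opposite sign to the stress factors that did, but most chaperones did not pass. Chaperones and genes of the unfolded protein response had 0 positive and 13 negative of 105 copies past the threshold. The other 92 did not pass, and the shares of all genes were 3.33% positive and 6.07% negative. By sign alone 38 copies were positive and 67 negative, with a median of -0.20 in the authors' deposited table. hspa5.L, the main Hsp70 of the endoplasmic reticulum, was at 2073 against 5344 normalised counts. Its copy hspa5.S, at 3418 against 5809.7, did not pass the threshold (adjusted p = 0.0921 in the authors' deposited table). Both copies of the lectin chaperone calr did, with log2 fold changes of -1.60 (SE 0.31) and -1.14 (SE 0.33) in the authors' deposited table. The stress sensor gene atf6.L was 3.06-fold lower, and dnajc3.L, pdia5.S, edem1.S and both copies of manf, which assist folding or disposal of secreted proteins, were 1.91-fold to 4.95-fold lower.

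Some genes were described whatever their values. The ubiquitin ligase gene mdm2.L had a log2 change of 0.18 (SE 0.43) and the cell cycle inhibitor cdkn1a.L 2.32 (SE 0.99), neither past the threshold of the authors' deposited table. Other genes of their pathway are not all reported here, so nothing about that pathway is read from these genes. Among 41 copies of core apoptosis genes only the cytochrome c gene cycs.S passed the threshold, at 2.76-fold higher.

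Transcripts of the mitochondrial genome were higher in the numerator arm as a block. This genome encodes 13 subunits of the respiratory chain and the ATP synthase, 12 of which had a row with a mean of 10 or more, and 11 of the 12 were positive past the threshold, with a median of 1.79 in the authors' deposited table. ND4 of complex I was at 28875 against 5754 normalised counts, CYTB of complex III at 80173 against 20993 and COX1 of complex IV at 664427 against 283446. The folds of the 11 lay between 2.34 for COX1 and 5.02 for ND4. ATP8 was the exception, at 864 against 153 normalised counts and with a log2 fold change of 2.50 (SE 1.53) in the authors' deposited table. Together the 12 took 7.08% of the normalised counts of the numerator arm and 2.64% of those of the denominator arm.

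Subunits of the same complexes that are encoded in the nucleus did not show this pattern. Of 123 copies, 2 were positive and 0 negative past the threshold, with a median of 0.21 in the authors' deposited table, and those were ndufb1.S and ndufs5.L of complex I at 2.65-fold and 2.34-fold higher. Mitochondrial ribosomal proteins had 3 positive (3.23%) and 1 negative (1.08%) of 93, beside 3.33% and 6.07% of all genes. ND6 lies on the other strand of the mitochondrial genome from its neighbours, and with unstranded libraries its reads cannot be told apart from antisense transcripts. How reads shared with nuclear copies of mitochondrial DNA were counted is not given in the sources used here. The share of mitochondrial reads is also a common sign of RNA or cell quality, and its part in the other results was not tested.

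Glycolytic genes were divided, with 4 positive (9.30%) and 6 negative (14.0%) of 43 copies past the threshold, beside 3.33% and 6.07% of all genes. Both copies of the pyruvate kinase gene pkm were higher, by 2.15-fold and 1.9-fold, as were pdk4.S (2.92-fold), whose kinase closes pyruvate dehydrogenase, and gpi.S (2.87-fold). The hexokinases hk1.L and hk2.S were 10.5-fold and 7.61-fold lower, pdk3.L 7.22-fold lower and the phosphofructokinase gene pfkp.L, at 124 normalised counts in the denominator arm and under the floor in the numerator arm, at least 41.4-fold lower. The homeolog gpi.L had the other sign, at -1.26 (SE 0.57) in the authors' deposited table, and did not pass the threshold. Of 32 copies of cholesterol genes 2 were positive and 2 negative past the threshold (6.25% each), and the negative share was near that of all genes. The sterol-sensing regulator scap.L and the transcription factor srebf1.S were 10.7-fold and 4.54-fold higher. Both copies of the last enzyme of synthesis, dhcr7, were 3.14-fold and 2.12-fold lower. The homeolog scap.S, at -0.74 (SE 0.49) in the authors' deposited table, had the other sign and did not pass.

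Few members of the large housekeeping families passed the threshold. Cytosolic ribosomal proteins had 0 positive and 1 negative of 136 copies past the threshold, rpl4.L at -0.92 (SE 0.25, adjusted p = 0.00428) in the authors' deposited table. Proteasome subunits had 0 of 78 past it and 8 at an unadjusted p-value under 0.05, and those with the lowest p-values, psmb4.L and psmc1.L, had 0.75 (SE 0.29) and 0.71 (SE 0.29) in the authors' deposited table. Translation factors had 1 of 79, eef1e1.L, which belongs to the synthetase complex, and ribosome biogenesis genes 3 of 71. The medians of these 4 families lay between -0.25 and 0.11, with median SEs of 0.28 to 0.32 in the authors' deposited table.

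Most cell division genes did not pass the threshold, and those that did were more often positive than negative. Mitotic cyclins and kinases had 7 positive and 0 negative of 54 copies past the threshold. Centromere and kinetochore proteins had 8 and 0 of 55, and DNA replication genes 5 and 1 of 59. The other 47, 47 and 53 copies did not pass, and the shares of all genes were 3.33% positive and 6.07% negative. The positive share of DNA replication genes was the lowest among these families and the nearest to that of all genes. The medians were 0.21, 0.44 and 0.35 in the authors' deposited table. ccna2.L, cyclin A, was at 6738 against 1872 normalised counts, and both copies of its activating phosphatase cdc25b were 3.42-fold and 3.07-fold higher. The kinetochore gene cenph.L and the cyclin-dependent kinase subunit cks2.L were 3.38-fold and 4.51-fold higher. The ribonucleotide reductase gene rrm1.L was 3.65-fold, the licensing factor cdc6.L 3.0-fold and the sliding clamp gene pcna.L 2.21-fold higher, while the helicase subunit mcm6.L was 2.38-fold lower. The homeologs rrm1.S, cdc6.S and pcna.S, at 0.14 (SE 0.27), 0.35 (SE 0.30) and 0.53 (SE 0.32) in the authors' deposited table, did not pass.

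Genes known from eggs and oocytes had 13 positive (31.7%) and 2 negative (4.88%) of 41 copies past the threshold, and a median of 1.0 in the authors' deposited table. The negative share was near the 6.07% of all genes. wee2.S, an oocyte kinase that inhibits mitotic entry, was at 1015 against 63.6 normalised counts. The RNA-binding genes rbpms2.L, ybx2.L and ybx2.S were 19.1-fold, 3.59-fold and 2.56-fold higher, and patl2.L was at 97.4 and under the floor, at least 32.5-fold higher. Both copies of the egg coat gene zp4 were higher, at 2.52-fold and 2.73-fold. The oocyte linker histone h1-8.S was lower, at 272 against 1040.0, as was dppa2.L at 2.68-fold. mov10l1.L, a helicase of the germline piRNA pathway, was at 387 against 43.5, and it was the 1 member past the threshold among 41 copies of microRNA and small RNA machinery genes. In that family dicer1, ago2.L, lin28a and lin28b had log2 fold changes between -0.39 and 0.22 in the authors' deposited table, none past the threshold.

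Pluripotency and maternal-zygotic genes had 10 positive (23.8%) and 2 negative (4.76%) of 42 copies past the threshold, and a median of 0.79 in the authors' deposited table. The negative share was near the 6.07% of all genes. The pou5f3 genes are the frog relatives of mammalian Oct4. pou5f3.2.L was at 4139 against 197 normalised counts, pou5f3.2.S at 3121 against 606 and pou5f3.3.S at 214 against 10.2. The copies of pou5f3.1 were less far apart, with 0.52 (SE 0.24) and 0.65 (SE 0.27) in the authors' deposited table, and did not pass the threshold. Of the Sall zinc finger genes, sall3.S, sall3.L and sall2.L were 6.37-fold, 6.29-fold and 3.08-fold higher, while sall1.L, sall2.S and both copies of sall4, at -0.26 (SE 0.31), 1.2 (SE 0.44), 0.57 (SE 0.41) and 0.88 (SE 0.37) in the authors' deposited table, did not pass. klf5.L, an epithelial Kruppel-like factor, was the clearest negative member, at 217 against 964.

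Neural plate genes had 13 positive (20%) and 6 negative (9.23%) of 65 copies past the threshold, and a median of 0.71 in the authors' deposited table. The early neural ectoderm factor foxd4l1.1.S was at 667 against 22.2 normalised counts and its homeolog at 290.4 against 17.6. Genes of the forebrain were among the positive members: lhx5 in both copies (5.91-fold and 3.2-fold), otx2 in both copies (3.59-fold and 3.09-fold), pax6 in both copies (4.72-fold and 4.27-fold) and hesx1.L (15.8-fold). The replication inhibitor gmnn.S, which promotes an immature neural state in frog ectoderm, was 3.1-fold higher. The SoxB1 factors sox2.L and sox3.S, which mark neural progenitors, were 2.16-fold and 3.14-fold higher, and sox3.L, at 0.78 (SE 0.40) in the authors' deposited table, did not pass the threshold.

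The 6 negative neural plate genes included hindbrain and placode regulators. mafb.L and mafb.S, which pattern the hindbrain and are also used in neural crest, were 23.5-fold and 46.6-fold lower. pax8.S, a gene of the otic placode and kidney, was at 406 normalised counts in the denominator arm and under the floor in the other, at least 135-fold lower. The Iroquois homeobox gene irx4.S was 6.35-fold lower, the receptor gene nrp1.L 9.58-fold, and prdm13.S, a regulator of neuronal subtypes, at least 13.3-fold. Among 31 copies of neuronal genes 1 passed the threshold, neurog3.S, at 45.1 in the numerator arm and under the floor in the other, at least 15-fold higher. Neural crest markers, the other derivative of this border, had 0 positive and 25 negative of 32 copies past the threshold, with a median of -2.12 in the authors' deposited table.

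Epidermal genes were lower in the numerator arm. Keratins, the intermediate filament proteins of epithelia, had 0 positive and 11 negative of 20 copies past the threshold, a median of -3.07 in the authors' deposited table and a negative sign in all 21 rows, of which krt70.L had no p-value. krt7.L was at 8871 against 74281 normalised counts and krt7.S at 7674 against 69624. krt70.S, krt12.5.S and krt8.1.S were 4.77-fold, 8.39-fold and 5.97-fold lower. The copies of krt12.4 were 99.3-fold and 11.7-fold lower, with SEs of 1.15 and 0.86 in the authors' deposited table, against a median SE of 0.27 for genes with means of 3000 or more.

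Other epidermal genes had 3 positive and 12 negative of 38 copies past the threshold. The transcription factor grhl3.S, which drives surface differentiation, was at 553 against 3406 normalised counts, and grhl3.L at 1697 against 2788 did not pass the threshold. tp63.L, the basal epidermal regulator, was at 78.9 in the denominator arm and under the floor in the numerator arm, at least 26.3-fold lower, while tp63.S had -2.43 (SE 1.69) in the authors' deposited table and did not pass. The plakin genes that anchor keratins at the cell edge were lower, evpl.L by 39.9-fold, ppl.S by 28.2-fold and dsp in both copies by 3.81-fold and 2.0-fold. The complement gene c3.L was 4.38-fold lower.

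Adhesion genes of epithelia did not all follow. The epithelial cadherin cdh1 was lower in both copies, cdh1.S at 3455 against 8865 normalised counts and cdh1.L 8.81-fold lower. The desmosomal cadherins dsg2.S and dsc3.S and the plakophilin pkp3.L were 4.53-fold, 3.27-fold and 2.07-fold higher in the numerator arm, and they were the 3 positive members of the epidermal family. Their homeologs did not pass, with -0.43 (SE 0.25) for dsg2.L, 0.01 (SE 0.51) for dsc3.L and -1.17 (SE 0.59) for pkp3.S in the authors' deposited table, and dsg2.L and dsc3.L were the more abundant copies, at 1259 and 957 normalised counts in the numerator arm. The maternal cadherin cdh3.L was 2.13-fold higher. Of 29 copies of tight junction genes, marveld2.L and cldn6.1.L were 3.96-fold and 2.93-fold higher and cldn7.L and f11r.S 1.95-fold and 2.07-fold lower. The homeologs cldn7.S and f11r.L, at 0.49 (SE 0.30) and -0.09 (SE 0.29) in the authors' deposited table, did not pass, and f11r.L was the more abundant copy.

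Some products of goblet cells were far lower in the numerator arm. itln1.L, an intelectin that these cells secrete, was at 46.5 against 5682 normalised counts, with a log2 fold change of -6.93, an SE of 0.46 (adjusted p = 3.0e-48) in the authors' deposited table. otogl2.L, an otogelin-like gene, was at 387 against 60021, with -7.28 (SE 1.3, adjusted p = 1.74e-06) in the authors' deposited table. Both copies of creb3l4, a membrane-bound transcription factor, were 8.16-fold and 6.43-fold lower. Mucins and goblet-cell genes had 0 positive and 4 negative of 11 copies past the threshold, and a median of -2.54 in the authors' deposited table.

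Enzymes that build mucin-type sugar chains followed the same direction where they passed the threshold. O-glycan and fucose transfer enzymes had 0 positive and 15 negative of 65 copies past the threshold, and a median of -0.64 in the authors' deposited table. The other 50 copies did not pass, and the family was added after values were seen. The enzymes that start these chains by adding N-acetylgalactosamine, galnt6.1.S and galnt6.2.L, were 17.4-fold and 6.02-fold lower, and the core synthase c1galt1.L and its chaperone c1galt1c1.L 2.69-fold and 5.75-fold. b3gnt7.L, which extends chains with N-acetylglucosamine, was at 189 against 1342 normalised counts, the fucosyltransferase fut3.L at 195 against 1102, and the sialic acid acetyltransferase casd1.L at 117 against 1529.

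Genes that supply sugar donors were also negative where they passed the threshold. Nucleotide sugar genes had 0 positive and 16 negative of 54 copies past the threshold, and a median of -0.77 in the authors' deposited table. The other 38 copies did not pass, and the family was added after values were seen. slc35c1.L, which carries GDP-fucose into the Golgi, was at 366 against 3631 normalised counts, and gfus.L, the enzyme that makes GDP-fucose, was 3.47-fold lower. Along the hexosamine pathway to UDP-N-acetylglucosamine, gfpt2.L, gnpnat1.L, pgm3.L and uap1.L were 3.51-fold, 5.07-fold, 2.99-fold and 3.74-fold lower. Of the genes named here, gfus.L, gnpnat1.L, pgm3.L, gale and gmppb were chosen after their values were seen. Both copies of gale, which makes the galactose donors, were 6.37-fold and 7.2-fold lower, and both copies of gmppb, which makes GDP-mannose, 5.31-fold and 2.31-fold.

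Members of early secretory traffic and of granule release past the threshold were nearly all negative. Coat and exit genes of the endoplasmic reticulum had 0 positive and 15 negative of 68 copies past the threshold. The coatomer gene copg1.L was at 387 against 1338 normalised counts, copa, copb1 and copb2.L were 1.9-fold to 2.02-fold lower, and the cargo adaptor sec24d was 8.47-fold and 3.57-fold lower in its copies. Rab27, synaptotagmin-like and SNARE genes, which dock granules at the surface, had 1 positive and 17 negative of 69. rab27a.S was at 193 against 1885, sytl2.S and sytl2.L, which bind it, were 9.04-fold and 7.34-fold lower and the motor myo5c.L 6.69-fold, while the syntaxin stx2.L was 3.54-fold higher. The translocon family stayed near the share of all genes, with 3 negative of 38 copies (7.89% beside 6.07%) and a median of -0.10 in the authors' deposited table, among them sec61a1.S at 2.08-fold lower.

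Calcium-binding genes of the cell cortex past the threshold were negative. Annexins, which bind membranes with calcium, and calpains, which are calcium-dependent proteases, had 0 positive and 11 negative of 41 copies past the threshold. anxa2.S was at 65.6 against 1138 normalised counts and capn1.L at 352 against 2985, whereas their homeologs anxa2.L and capn1.S, at -1.19 (SE 0.56) and -0.39 (SE 0.60) in the authors' deposited table, did not pass. Among calcium pumps and kinases, atp2a3.L, a pump of the endoplasmic reticulum, was at 98.8 against 1345, the kinase camk2g.L 20.6-fold lower, and the Golgi pump atp2c2.L at least 81.4-fold lower. The plasma membrane pump atp2b1.S was 4.01-fold higher. Of the enzymes of sphingolipid synthesis, the ceramide galactosyltransferase ugt8.S was at 32.6 against 799 and the ceramide synthase cers2.L was 5.86-fold lower, while cers2.S, at 1.43 (SE 1.03) in the authors' deposited table, did not pass. The part of the epidermal markers in the results for keratins, glycans and secretion was not tested.

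**Figure D3:**
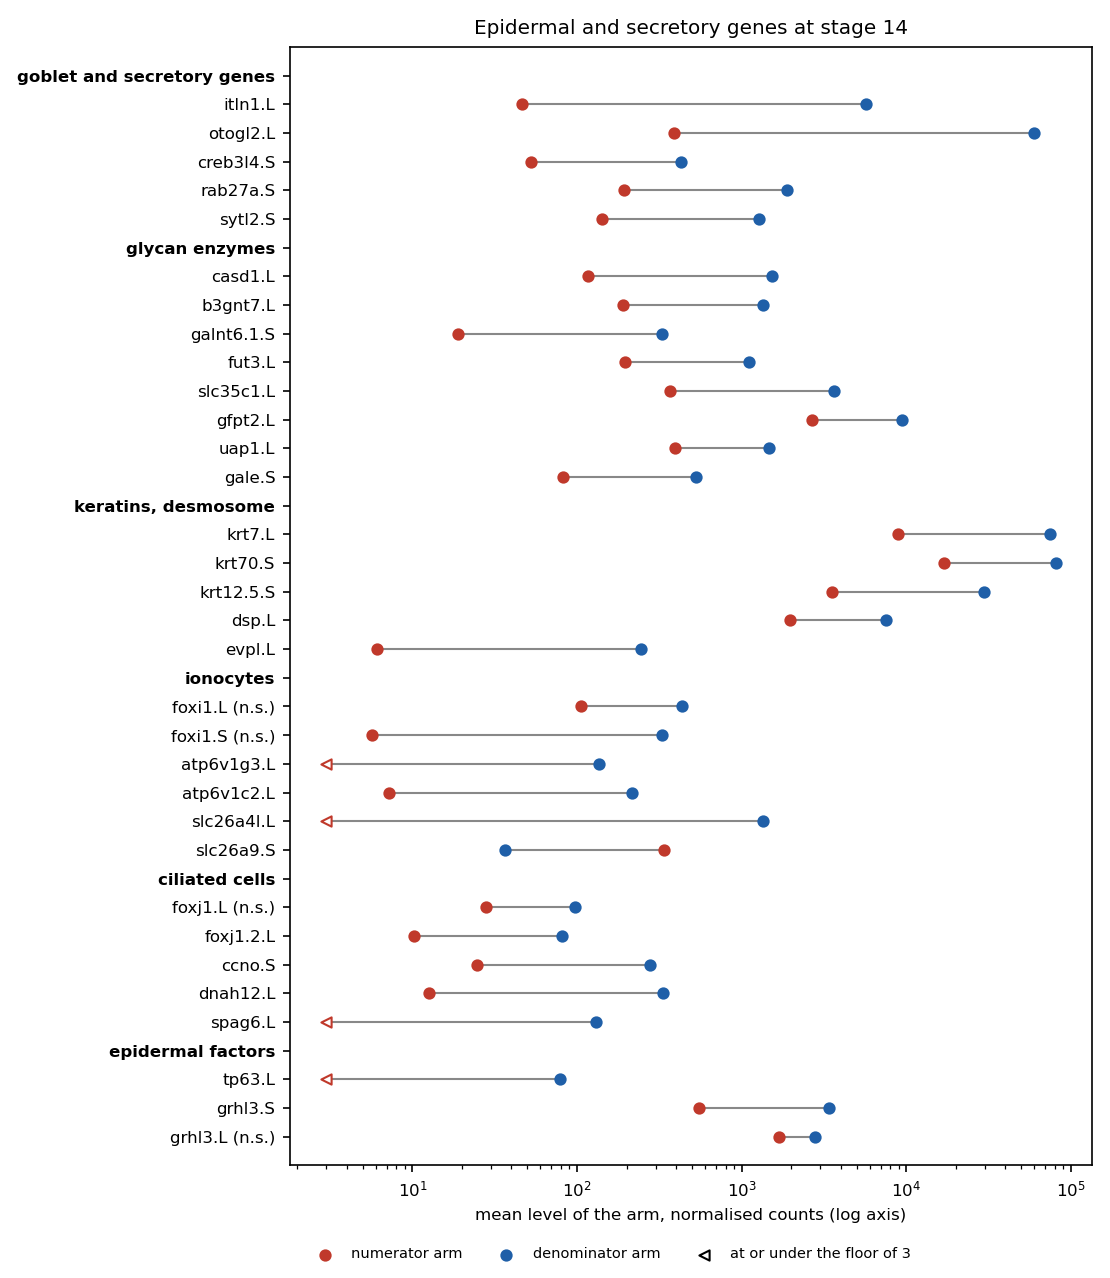
Mean level of the numerator arm (red) and of the denominator arm (blue) in normalised counts on a log axis, computed from the deposited mean and fold change, for epidermal and secretory genes at stage 14. Open triangles mark arms at or under 3, and n.s. marks genes that did not pass the threshold. All genes shown except slc26a9.S are lower in the numerator arm, with otogl2.L spanning from 387 to 60021.

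Ionocytes are acid- or base-secreting cells of the frog epidermis that carry a proton pump and anion exchangers. Their family had 1 positive (1.85%) and 12 negative (22.2%) of 54 copies past the threshold, beside 3.33% and 6.07% of all genes. The lower arm of 8 of those past it was under the floor. The other 41 copies did not pass, and the family median was -0.33 in the authors' deposited table. slc26a4l.L, a pendrin-like anion exchanger, was at 1344 normalised counts in the denominator arm, and at least 448-fold lower in the other. atp6v1g3.L and atp6v0a4.L, subunits of the proton pump with restricted expression, were at least 45.6-fold and 69.4-fold lower, the carbonic anhydrase ca2.L at least 53.8-fold, and the transcription factor ubp1.L at least 107-fold. slc26a9.S was the exception, at 336 in the numerator against 36.3 in the denominator arm (log2 fold change 3.21, SE 0.74, adjusted p = 5.60e-04 in the authors' deposited table).

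The main regulator of ionocytes varied too much to be called. foxi1.S was at 5.67 against 328 normalised counts and foxi1.L at 105 against 435, but their SEs in the authors' deposited table were 2.44 and 2.23, where the median for genes with means of 100 to 300 was 0.52. The 4 copies of the ionocyte markers foxi1, atp6v1b1 and ca12 summed to 140.3 in the numerator and 1631 in the denominator arm, with 0 past the threshold of the authors' deposited table. Other ion transport genes had 0 positive and 8 negative of 74 copies past it, among them clcn5.L (8.47-fold lower), the proton-potassium pump atp12a.L (at least 56.9-fold lower) and the cotransporter slc12a2.L (3.46-fold lower). The homeolog slc12a2.S, at 0.005 (SE 0.27) in the authors' deposited table, did not pass.

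Multiciliated cells were the family with the most members past the threshold by count, 31 negative (31.3%) and 0 positive of 99 copies, and a median of -1.67 in the authors' deposited table. Larger shares were seen, among others, in mitochondrially encoded genes (91.7% positive), neural crest markers (78.1% negative), keratins (55%) and goblet-cell genes (36.4%). The mitochondrially encoded and goblet-cell families were added after values were seen, so their shares cannot be ranked against the others. Multiciliated cells sweep mucus over the embryo with motile cilia. ccno.S, a cyclin-like gene needed to multiply centrioles, was at 24.6 against 278 normalised counts, ccno.L was 7.54-fold lower and deup1.L, a scaffold of the same process, 24.2-fold. Axonemal genes were lower, with the dynein heavy chains dnah12.L and dnah9.S at 26.4-fold and 3.19-fold, dnai7.L at least 30.6-fold and the central pair gene spag6.L at least 43.2-fold. Of the intraflagellar transport genes, which serve all cilia, ift52.L, ift122.L and ift172.L were 3.18-fold, 3.88-fold and 2.39-fold lower. They were chosen after their values were seen. Neither copy of ift20, ift74 or ift81 passed the threshold, and ift20 and ift74 each had copies of both signs.

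Upstream regulators of these cells were less certain. Of the foxj1 genes, master regulators of motile cilia, foxj1.2.L was at 10.2 against 81.2 normalised counts and passed the threshold, and foxj1.L and foxj1.S, at -1.79 (SE 0.94) and -2.37 (SE 1.54) in the authors' deposited table, did not. The coactivator mcidas.L, at 14.4 against 377, had an SE of 2.40 there and did not pass either. Sums over the 9 copies of multiciliated markers were 319.6 in the numerator and 2788 in the denominator arm.

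Placode genes, which mark the sensory thickenings beside the neural plate, had 0 positive and 5 negative of 28 copies past the threshold, and a median of -1.51 in the authors' deposited table. The homeobox gene six4.L of this territory was at 592 against 1361 normalised counts. dlx5.L was 2.84-fold lower, gata2.S 3.76-fold and gata3.L at least 26.9-fold, and gata2, gata3 and dlx5 are also used in the non-neural ectoderm. Genes of endoderm and notochord had 3 positive and 2 negative of 12 copies past the threshold. The notochord homeobox gene not was higher in both copies, not.L at 335 against 28.3 and not.S at 141 against 8.18, and cer1.S and nog.S, which encode secreted antagonists, were 5.69-fold and 4.4-fold lower. Mesoderm, muscle and blood genes had 0 of 12 past the threshold and 3 with an unadjusted p below 0.05 in the authors' deposited table, where the lowest p-values were those of myh6.S (1.54, SE 0.64) and foxf1.L (-4.36, SE 1.86).

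Signalling families differed in their shares of copies past the threshold, from 0% to 9.3% positive beside 3.33% of all genes and from 0% to 18.6% negative beside 6.07%. In the BMP pathway, the homeobox targets msx1 and msx2 were lower in all 4 copies, from 1.93-fold for msx1.L to 3.03-fold for msx1.S, while the ligands bmp4.S and admp.L were 3.17-fold and 5.0-fold higher and gdf6.S was 4.29-fold lower. The homeolog bmp4.L, at -0.40 (SE 0.38) in the authors' deposited table, had the other sign and did not pass the threshold. FGF ligands and receptors had 2 negative of 16, the receptors fgfr4.L (5279 against 10655 normalised counts) and fgfr3.L (2.98-fold lower). Of the Notch family's 58 copies 7 passed, with the receptor notch2.S 8.38-fold lower, the ligand jag1.L 2.43-fold higher, the neural effectors hes5.10.S and hes3.L 7.08-fold and 5.41-fold higher, and hey1.S and hes2.L 9.2-fold and 9.1-fold lower. The homeolog jag1.S had the other sign, at -1.74 (SE 0.90) in the authors' deposited table, and did not pass.

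Hedgehog genes had 1 positive (4.55%) and 3 negative (13.6%) of 22 copies past the threshold, beside 3.33% and 6.07% of all genes. The release factor disp1.L and the co-receptors boc.L and cdon.L were 3.64-fold, 2.59-fold and 2.28-fold lower, and the receptor and target ptch1.S was 2.8-fold higher. Their homeologs did not pass, with -0.15 (SE 0.37) for disp1.S, -0.16 (SE 0.36) for boc.S, -0.80 (SE 0.31) for cdon.S and 0.74 (SE 0.40) for ptch1.L in the authors' deposited table. Wnt ligands and receptors had 1 positive (2.5%) and 0 negative of 40 past the threshold, the receptor fzd3.S at 2.37-fold higher. The modulators had 3 positive (6.82%) and 2 negative (4.55%) of 44. Among them the nuclear factors tcf7l1.S and lef1.L were 3.7-fold and 2.9-fold higher, the feedback inhibitor nkd1.S 6.22-fold lower and dvl1.L at least 25.4-fold lower. The homeolog lef1.S had the other sign, at -0.42 (SE 0.62) in the authors' deposited table, and did not pass. Retinoic acid genes had 2 positive (6.67%) and 1 negative (3.33%) of 30 copies past the threshold. The enzyme gene rdh10.L was 3.36-fold lower, and the receptor rarg.S 1.6-fold higher. The homeolog rdh10.S had the other sign, at 0.34 (SE 0.33) in the authors' deposited table, and did not pass. For MAPK feedback genes 1 positive and 1 negative of 44 passed (2.27% each), il17rd.S (2.57-fold higher) and dusp8.S (3.47-fold lower).

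Hox genes, which set position along the body axis, were mostly low at this stage. Of 27 copies with a mean of 10 or more, 24 had a p-value and 3 passed the threshold, all negative. hoxb1.S was at 931 against 3569 normalised counts, and the copies of hoxc3 were under the floor in the numerator arm and at least 14.2-fold (hoxc3.L) and 11.5-fold (hoxc3.S) lower. The median SE of the family was 1.64 in the authors' deposited table and the lower arm of 8 copies was at or under the floor, so changes of moderate size were not detectable for most of these genes.

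Most transcription factor families held members of both signs. Myc, a regulator of growth, was lower in both copies, myc.L at 1258 against 5640.1 normalised counts and myc.S at 1378 against 4412. The hypoxia factors epas1.S and hif1a.L were 6.13-fold and 1.76-fold lower. Kruppel-like factors had 3 positive (9.68%) and 4 negative (12.9%) of 31 copies past the threshold, beside 3.33% and 6.07% of all genes. In this family klf10 was higher in both copies (3.9-fold and 2.59-fold), and klf6.L and klf15.2.S were 5.38-fold and 5.15-fold lower. Forkhead genes had 5 (10%) and 4 (8%) of 50, the negative share near that of all genes. Besides foxd4l1, the positive ones included the neural gene foxb1.S (5.25-fold). Nuclear receptors had 2 (5.88%) and 4 (11.8%) of 34, among them nr6a1 in both copies (1.95-fold and 2.14-fold lower) and nr2f2.L (4.09-fold higher). Chromatin regulators had 1 positive (0.81%) and 5 negative (4.07%) of 123, both under the shares of all genes (3.33% and 6.07%). Among them the demethylase kdm1a was lower in both copies (2.79-fold and 1.89-fold) and the histone H4 methyltransferase kmt5a.L 4.33-fold higher. The homeolog kmt5a.S, at 0.36 (SE 0.31) in the authors' deposited table, did not pass.

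Genes of cell contact past the threshold had both signs, and their shares stand beside 3.33% positive and 6.07% negative of all genes. Cadherins and protocadherins had 2 positive (4.88%) and 10 negative (24.4%) of 41 copies past the threshold. Of these, pcdh8l.L was at 82.0 against 671 normalised counts and pcdh7 was 5.57-fold and 5.61-fold lower in its copies. The fibronectin receptor subunit itga5 was 4.37-fold and 2.53-fold lower. Guidance genes had 4 positive (9.30%) and 8 negative (18.6%) of 43, so both shares were above those of all genes. Among them were plxna2 in both copies (4.21-fold and 3.4-fold lower), slit2.S (6.02-fold lower) and the netrin gene ntn1.L (4.53-fold higher). Chondroitin and heparan sulphate enzymes had 2 positive (5.56%) and 6 negative (16.7%) of 36 copies past the threshold, with a median of -0.05 in the authors' deposited table. Among them chsy1.L was at 198 against 1232, chsy1.S and chpf.S were 6.77-fold and 4.28-fold lower, while the heparan sulphatase sulf1.L was 2.42-fold higher. Innate immune and interferon genes had 3 positive (6.38%) and 1 negative (2.13%) of 47, and irf5.L was 5.64-fold higher.

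Shares in the matrix and receptor families stand beside 3.33% positive and 6.07% negative of all genes. Integrins and matrix genes had 2 positive (3.7%) and 3 negative (5.56%) of 54 copies, with the integrin itgb6.L 11.3-fold and the perlecan gene hspg2.L 1.91-fold higher and the collagen col1a2.L 7.93-fold lower. Matrix proteases had 3 (8.33%) and 5 (13.9%) of 36, with mmp19.L at 145 against 5.41 normalised counts and mmp28.L 18.3-fold lower. Both copies of the membrane-bound protease adam33 were lower, adam33.L by 2.66-fold and adam33.S, under the floor in the numerator arm, by at least 15.6-fold. Of 19 copies of Eph receptors and ephrins, which sort cells at boundaries, ephb2.S and efnb2.S were 3.22-fold and 1.81-fold lower. The homeolog efnb2.L, at 0.67 (SE 0.35) in the authors' deposited table, had the other sign and did not pass the threshold.

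The family of homeobox genes outside the Hox clusters is a partial list. It had 5 positive (9.43%) and 2 negative (3.77%) of 53 copies past the threshold, beside 3.33% and 6.07% of all genes. Homeobox genes described with other families, such as pax6, hesx1, not, irx4, msx1, msx2, six4 and dlx5, are not in this count. The positive ones were both copies of lhx5 and otx2, and zeb2.L, a repressor used in neural ectoderm and crest, at 5792 against 2702 normalised counts. The negative ones were lhx1.S (17.0-fold lower) and hmx2.S, under the floor in the numerator arm (at least 19.5-fold lower). Sox factors had 2 positive (8.33%) and 6 negative (25%) of 24 copies past it. All 6 negative members were copies of the SoxE genes sox8, sox9 and sox10, which belong to the neural crest list, while both positive ones were SoxB1 genes. Basic helix-loop-helix factors had 3 (2.94%) and 11 (10.8%) of 102 copies, and the negative ones included twist1.S and twist1.L of the crest list at 9.75-fold and 4.06-fold lower. Among 71 copies of sphingolipid, galactosyl and sialyl transfer enzymes, 2 were positive and 9 negative, and the median was 0.08 in the authors' deposited table, with b4galt3.S and b4galt3.L 6.65-fold and 5.52-fold lower and the sialyltransferase st6galnac2.L 3.26-fold higher. Histone genes had 1 negative of 19, the linker histone named above.

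Xenopus laevis is allotetraploid, and most genes have a copy on a long chromosome (.L) and its shorter homeolog (.S). These homeologs are separate rows, although counting could divide reads between copies of nearly equal sequence, and its settings are not given. Of 4826 pairs with a p-value for both copies, 165 had both past the threshold, and 163 of these had the same sign. The 2 exceptions were stox1 and plekhg5, which are named after their values were seen. Where 1 copy of a pair passed, the other had the same sign in 478 of 606 pairs (78.9%). Within the families, both copies passed with the same sign in 76 pairs and with opposite signs in 0. Where 1 copy of a family pair passed, the signs were the same in 160 of 185 pairs, and where neither did, in 517 of 824. A gene named above by 1 copy stands for that copy only.

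**Figure D4:**
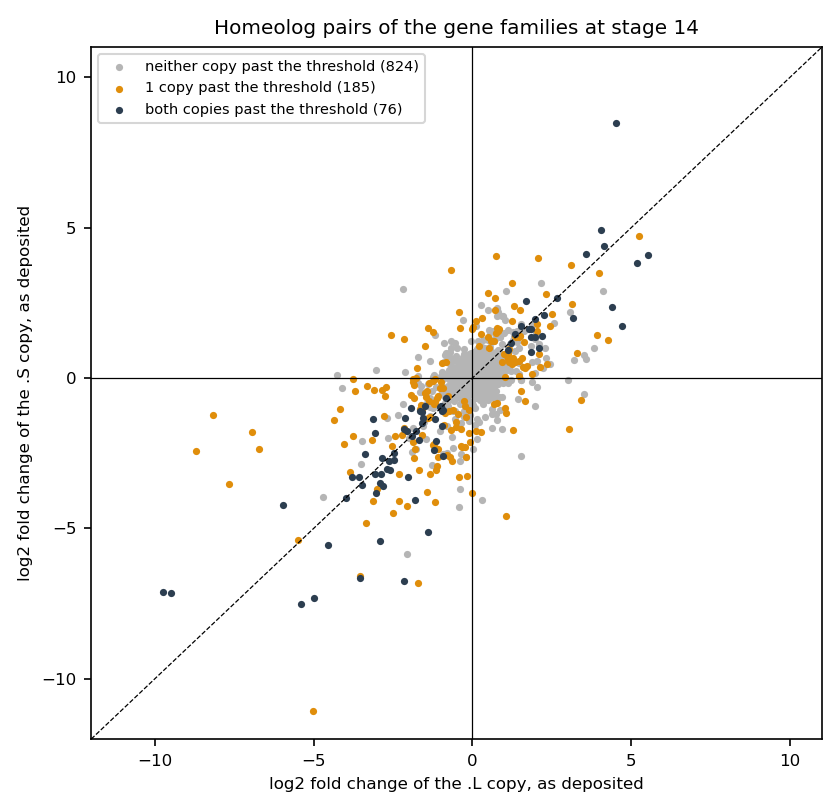
Log2 fold changes of the .L copy (horizontal axis) and of the .S copy (vertical axis) at stage 14, as deposited, for 1085 homeolog pairs of the gene families. The broken line marks equal values, and 1 pair lies outside the axes. The 76 pairs with both copies past the threshold (dark) lie in the quadrants of equal sign, and of the 185 pairs with 1 copy past it (orange) 160 do. Of the 824 pairs with neither copy past it (grey), 517 do.

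Some fold changes differed between stage 14 and stage 17. The difference between the stages was tested for each gene from the fold changes and SEs of both of the authors' deposited tables by a two-sided normal test with Benjamini-Hochberg adjustment, and 244 of 16194 genes (1.51%) passed. Every stage has its own batch label, so stage and batch cannot be told apart. Of the 12 mitochondrially encoded genes 5 passed, all with a smaller change at stage 17, where 0 of the 12 were past the authors' threshold and the median was 0.18. In the authors' deposited tables, ND4 had a log2 fold change of 2.33 (SE 0.37) at stage 14 and 0.15 (SE 0.35) at stage 17, and the difference had an adjusted p of 0.00352. In the ionocyte family slc26a9.S changed sign, from 3.21 (SE 0.74) to -2.36 (SE 0.52) in the authors' deposited tables (adjusted p of the difference = 1.09e-06). The myc copies were near 0 at stage 17, at -0.08 (SE 0.37) and -0.04 (SE 0.30) in the authors' deposited tables, with adjusted p of 0.00735 and 0.0161 for the difference.

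The stress response as a group was not shown to be particular to stage 14. Between stages 0 of 25 stress factors, 0 of 37 cytosolic synthetases and 1 of 105 chaperones, dnajc6.S, differed past the threshold, beside 1.51% of all genes. Families of this size would hold few such genes at that share. At stage 17 the authors' deposited table had 8 positive stress factors, 4 positive synthetases and 11 negative chaperones past it. Of all genes with a mean of 10 or more at stage 17, 5.23% were positive and 5.26% negative past it, together 10.5%. phgdh.L was at least 36.9-fold higher at stage 17, where its denominator arm was under the floor, against 9.86-fold at stage 14, and slc38a5.S had 1.14 (SE 0.63) at stage 17 against 4.08 (SE 0.49) in the authors' deposited tables. For these the adjusted p of the difference was 0.0435 and 0.0217. In the neural plate family 17 of 62 copies differed between stages and in the pluripotency family 11 of 38, all with a more positive change at stage 17. For secretory families the counts were 0 of 63 glycan enzymes, 0 of 52 nucleotide sugar genes and 1 of 68 coat genes, near the 1.51% of all genes.

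**Figure D5:**
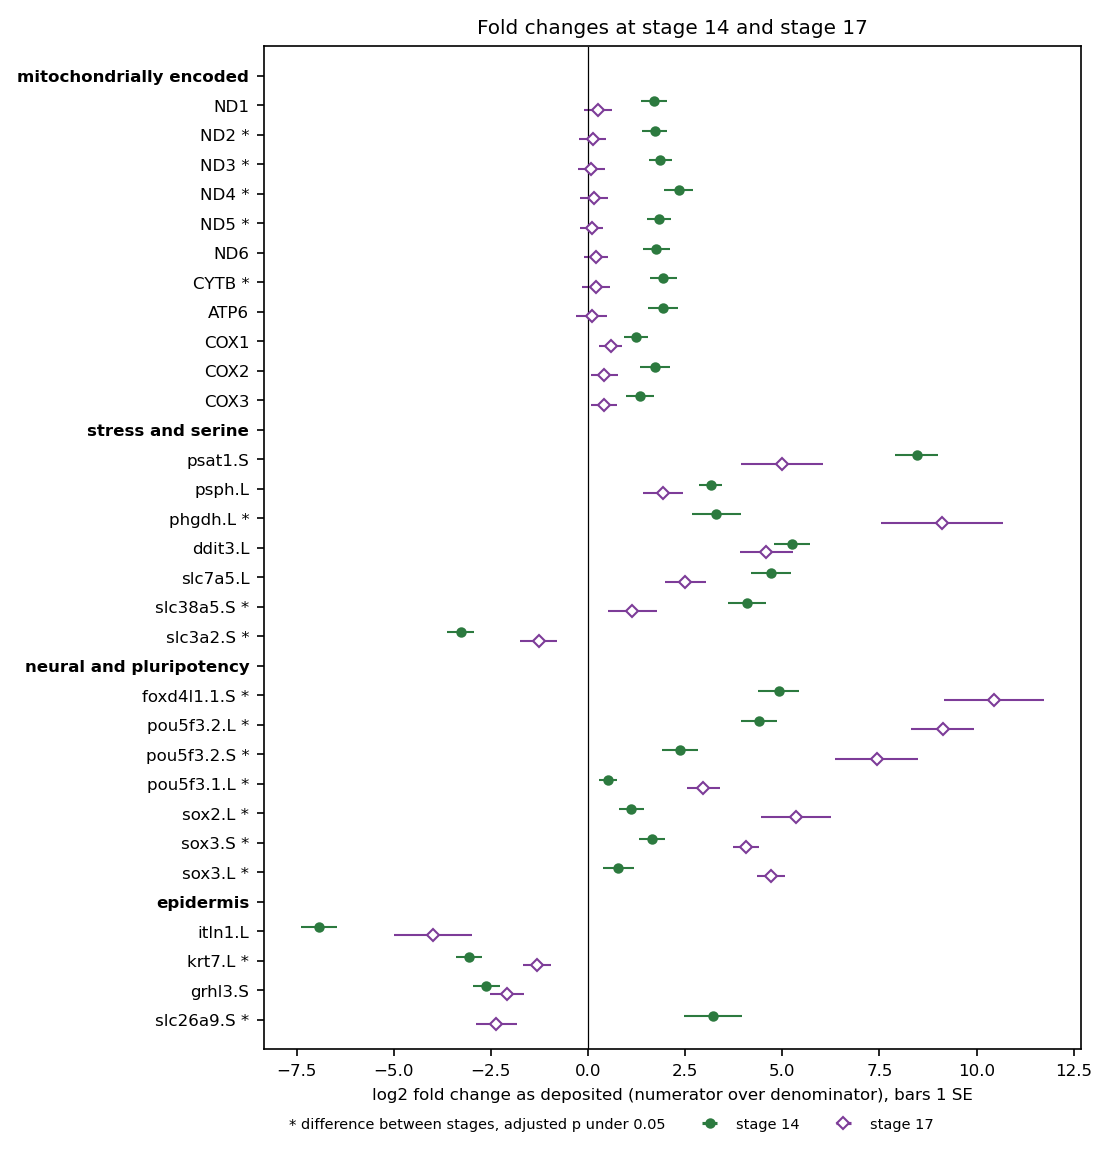
Log2 fold changes as deposited at stage 14 (filled circles) and stage 17 (open diamonds) with bars of 1 SE, for mitochondrially encoded, stress, neural, pluripotency and epidermal genes. Asterisks mark genes with an adjusted p-value under 0.05 for the difference between stages, and at stage 17 the denominator arm was under the floor for phgdh.L, foxd4l1.1.S and pou5f3.2.L. Mitochondrial transcripts lie between 1.23 and 2.33 at stage 14 and closer to 0 at stage 17, and slc26a9.S changes sign.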

How the data were processed

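RNA sequencing of 6 stage 14 samples, 3 per arm, was analysed through the authors' own comparison. Reads were aligned with STAR 2.7.3a and compared with DESeq2, per the submitters' processing notes, and the build, annotation and counting settings are not given in the sources used here. The libraries were unstranded, per the labels' protocols. Per the file headers, the deposited table gives each gene a mean normalised count, a signal scaled between libraries by the authors, a log2 fold change with its SE, their ratio as a test score, and a p-value with its adjusted value. The table names no arms, and the pair compared at stage 14 follows from the sample groups.

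From these values the mean level of each arm was computed, assuming arms of equal size, with a floor of 3 normalised counts. Families were defined by symbol patterns, with homeologs as separate rows and a mean normalised count of 10 or more required. The members, the 58 proposed families and the tests were chosen with earlier results of these data known, some patterns were corrected after values were seen, and 12 families (mitochondrially encoded proteins, amino acid and methionine-cycle enzymes, centromere and kinetochore proteins, egg and oocyte genes, chondroitin and heparan sulphate enzymes, and the 7 secretory families) were added after that. Families are therefore described with no test. Symbols were matched to RefSeq names of Xenopus_laevis_v10.1 for 15691 rows (99.96%), and no coordinates are printed.

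Genes named are the 12 positive and 12 negative genes with the lowest p-values and a log2 fold change of 1 or more in size outside the neural crest list, up to 4 per direction and family with the lowest p-values, their homeologs, 25 genes named whatever their values, and the 2 lowest p-values in a family with none past the threshold. A further 56 genes were chosen after their values were seen. A few genes that this rule takes in are not reported here. A count test per sample could not be run on this table, and a planned search for miR-196a seed matches was not run. Stage differences were computed with scipy 1.17.1, and that step was tested on simulated data. Alternatives were other thresholds, filters, centring and averaged homeologs.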

Additional observations from a re-analysis of the deposited data

Results flagged for a closer look

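The fold changes of 52 named genes differed between stage 14 and stage 17 by the normal test with Benjamini-Hochberg adjustment, out of 244 genes in the whole table, and samples of a stage share a batch label. Differences are given as the log2 fold change at stage 17 minus that at stage 14, from the authors' deposited tables.

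Differences below 0 were those of CYTB (-1.73), ND4 (-2.18), ntn1.L (-4.60), slc26a9.S (-5.57) and slc38a5.S (-2.94). Of these, ntn1.L and slc26a9.S were positive past the authors' threshold at stage 14 and negative past it at stage 17.

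Neural plate and pluripotency genes had more positive changes at stage 17, with differences of 5.53 for foxd4l1.1.S, 4.81 for lhx5.S, 4.24 for sox2.L, 3.92 for sox3.L and 2.42 for sox3.S. For the pou5f3 genes they were 2.45 (pou5f3.1.L), 2.78 (pou5f3.1.S), 4.73 (pou5f3.2.L) and 5.07 (pou5f3.2.S), for sall2.S 3.62 and for tdgf1.3.L 5.41. Other neural plate genes, negative at stage 14, differed by 3.13 (irx4.S), 3.50 (nrp1.L), 9.19 (pax8.S) and 14.91 (prdm13.S).

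Signalling and patterning genes differed by 5.61 (admp.L), 3.19 (cer1.S), 2.12 (disp1.L), 2.86 (dusp8.S), 2.68 (fgfr3.L), 2.27 (fgfr4.L), 7.60 (hes3.L), 2.53 (notch2.S) and 2.15 (rdh10.L). For homeobox genes the differences were 6.84 (lhx1.S), 2.78 (hoxb1.S), 7.36 (hoxc3.S), 1.58 (msx1.L) and 2.7 (msx1.S), and for myc 2.09 (myc.L) and 1.64 (myc.S).

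The stress and metabolic genes were phgdh.L (5.80), pfkp.L (6.94), slc3a2.S (2.0) and dnajc6.S (2.80). Genes of epidermis, cilia, glycans and matrix differed by 8.04 (tp63.L), 1.74 (krt7.L), 1.79 (capn1.L), 7.56 (atp2c2.L), 2.20 (ugt8.S), 2.04 (chsy1.L), 1.91 (chsy1.S), 1.91 (itga5.L), 7.04 (dnai7.L) and 4.30 (spag6.L). In no family were tdgf1.3.L (5.41), ttc39a.L (3.92) and MGC147226.S (2.73).

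In 15 of the 52 genes an arm was at or under the floor at 1 stage or both, so the size of the difference depends on the fitted value. These were admp.L, foxd4l1.1.S, hes3.L, lhx5.S, phgdh.L, pou5f3.2.L and tdgf1.3.L at stage 17, atp2c2.L, dnai7.L, hoxc3.S, pax8.S, pfkp.L, spag6.L and tp63.L at stage 14, and prdm13.S at both.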

How the results depend on the processing

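The count of genes past the threshold was 306 positive and 620 negative with the adjusted p of the authors' deposited table below 0.01, against 520 and 950 at 0.05. Under the other alternatives run, it stayed within 1.5 times these values: 720 and 1189 at 0.1, 474 and 875 with log2 fold changes of 1 or more in size, 484 and 820 with a mean normalised count of at least 50, 491 and 828 without genes at the floor, 532 and 888 with homeologs averaged, 535 and 972 when adjusted over genes with a mean of 10 or more, 523 and 960 without that minimum, and 521 and 992 with fold changes centred on their median. The count of genes that differ between stages was 244 both over all genes and over those with a mean of 10 or more in both tables. Of 70 family medians, 16 changed sign under at least 1 alternative, and the largest of them was 0.66, that of mesoderm, muscle and blood genes, which was -0.55 without the minimum. Of 140 family counts, 48 moved by more than 1.5 times at 0.01 and 29 with homeologs averaged. No paired analysis was possible because the sample numbers are not shared between the arms and values per sample were not analysed here, and for the latter reason no replicate could be left out. Changes of genes with few reads were limited by their SE.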
